A study of Mus musculus with 12 samples.

Results

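The genes described here encode TFIID and the other general transcription factors, with their close relatives. Members were the single-gene transcript clusters whose symbol is Taf followed by digits and at most 1 letter, or begins with Gtf2, together with Tbp, each gene being represented by its cluster with the highest mean intensity. The rule found 39 genes among the 19938 genes with a single-gene cluster. RNA came from the macrodissected hippocampus of 6 adult male Madison (MSN) mice and 6 adult male hsd:ICR (ICR) mice, with a separate Affymetrix Mouse Gene 1.0 ST array for each animal. MSN is a highly inbred line that descends from the outbred ICR strain. The sample labels describe it as bred for a manic phenotype, whereas the study's methods give wheel running and then maternal defense as the selected traits, followed by generations without selection before the phenotype was noticed. MSN mice move more and rest less than ICR mice. No treatment was compared, and only males, 1 tissue and 1 selected line were examined. Differences tied to the behavior and differences that selection or drift fixed in the line cannot be told apart with this design.

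TFIID is the complex that recognizes core promoters. It is built from the TATA-binding protein and a set of TBP-associated factors (TAFs), many of which pair through histone folds, and it nucleates assembly of RNA polymerase II with TFIIA, TFIIB, TFIIE, TFIIF and TFIIH. Some proteins with TAF names work elsewhere. Taf5l and Taf6l belong to the histone acetyltransferase complex SAGA, whereas Taf1a, Taf1b, Taf1c and Taf1d join TBP in selectivity factor SL1, which directs RNA polymerase I to ribosomal RNA genes. The TFII-I family carries Gtf2 names but comprises regulated DNA-binding factors, and its human genes lie in or beside the region deleted in Williams syndrome.

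Most of these genes differed little between the strains. A cluster of Taf1d was higher in MSN mice, and it was the only member called at an adjusted P-value under 0.05, so that 1 of 39 members was called and 38 were not, while 0.777% of all tested clusters were called. None of the 18 TFIID members was called by limma (3 had an unadjusted P-value under 0.05), although the TFIID gene Taf4b lay near the threshold and did not overlap between the strains. Of the members, 7 had an unadjusted P-value under 0.05, 3 with higher and 4 with lower means in MSN mice, beside 12.7% of all tested clusters. In 3 members the 6 MSN values and the 6 ICR values did not overlap, beside 1.44% of all tested clusters. The median log2 fold change, MSN over ICR, was -0.00 over the members and -0.01 over all tested clusters, and the median size of the log2 fold change was 0.03 and 0.05. Log2 fold changes were above 0 in 17 members and below 0 in 22, a split that became 22 above and 17 below with quantile normalization and 27 above and 12 below with a common median for all arrays.

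**Figure D1:**
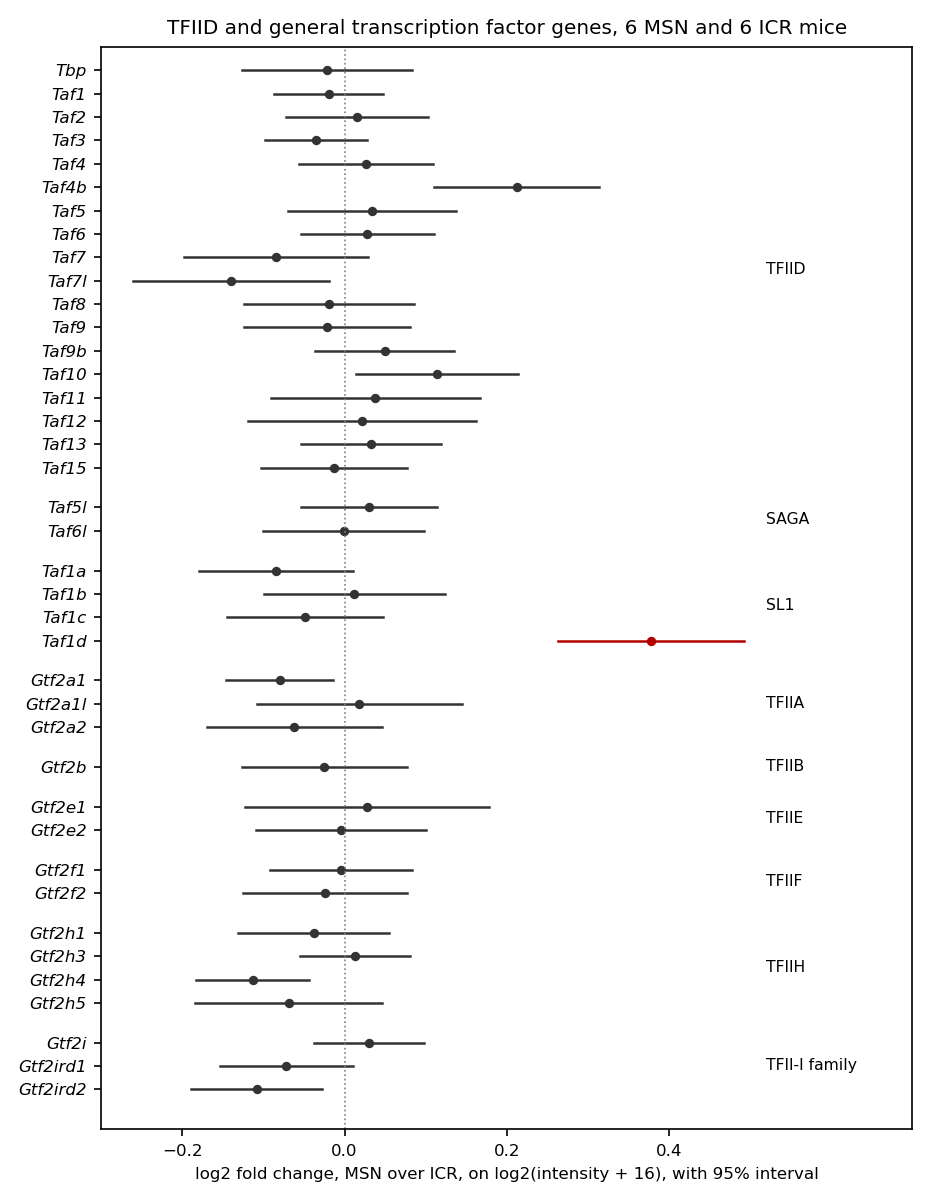
Log2 fold change (MSN over ICR, n = 6 mice each) of each of the 39 members on the log2(intensity + 16) scale, with limma 95% confidence intervals as bars, grouped by complex; the called member is red. Taf1d stands apart at 0.38, Taf4b lies at 0.21, and the other members lie between -0.14 and 0.11.

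Promoter sequences are shown for Taf1d, the called member, and for Gtf2h4, a member whose strains did not overlap in the other direction. The starts are annotated ones, and their use in this tissue was not tested. They come from the RefSeq promoter table of mouse build GRCm38.p6, which held 44 promoters of 35 members, each with 250 bases before and 50 bases after the transcription start. Capitals mark matches to the 5 motifs searched on both strands. The Taf1d window lies at chr9:15305964-15306263 on the + strand, and both of its matches are GC boxes read on the opposite strand. The Gtf2h4 window lies at chr17:35673694-35673993 on the - strand, and both of its matches are CCAAT boxes.
Taf1d: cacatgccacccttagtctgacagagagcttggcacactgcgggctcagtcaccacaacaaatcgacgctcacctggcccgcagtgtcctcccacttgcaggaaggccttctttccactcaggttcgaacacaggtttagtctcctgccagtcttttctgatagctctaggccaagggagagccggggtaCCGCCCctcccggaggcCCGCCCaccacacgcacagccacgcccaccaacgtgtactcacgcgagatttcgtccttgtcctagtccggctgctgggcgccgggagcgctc
Gtf2h4: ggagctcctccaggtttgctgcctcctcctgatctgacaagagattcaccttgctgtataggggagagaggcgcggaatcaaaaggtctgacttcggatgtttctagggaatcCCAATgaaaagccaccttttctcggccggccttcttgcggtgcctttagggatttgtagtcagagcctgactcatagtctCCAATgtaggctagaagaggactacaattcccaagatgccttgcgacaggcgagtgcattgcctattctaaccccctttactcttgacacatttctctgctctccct

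Neither window held the TATA box letters TATAAA. Over the members, TATAAA occurred in 7 of 44 promoters (15.9%), beside 13.6% of the 32851 promoters in the table. The CCAAT box, searched as CCAAT, occurred in 31.8% of member promoters and 37.4% of all promoters. The GC box, searched as GGGCGG, occurred in 63.6% of member promoters and 35.7% of all promoters, and the core of ETS factor sites, searched as TTCCGG, in 40.9% of member promoters, that of Tbp among them, and 14.9% of all promoters. The NRF1 core GCATGC occurred in 13.6% of member promoters and 7.93% of all promoters. No motif contains the letters of another, some members have more than 1 promoter in the table, and a match describes the letters only.

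Taf1d encodes a subunit of SL1. The cluster that represents it had intensities of 1219, 1226, 1189, 1243, 1113 and 1044 in MSN mice, against 916.8, 889.7, 791.7, 964.5, 922.9 and 904.3 in ICR mice. Every MSN mouse was above every ICR mouse. The means were 1172 ± 77.9 in MSN mice and 898.3 ± 58.0 in ICR mice (SD, n = 6 each), a ratio of 1.30. The log2 fold change was 0.38 (SE 0.05, 95% confidence interval 0.26 to 0.49, limma adjusted P-value = 0.00589), and the two-sided exact permutation test gave P-value = 0.00216, the smallest that 6 against 6 mice allow. The call held without each of the 12 arrays in turn (adjusted P-value 0.00436 to 0.0191).

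The platform annotation assigns 9 single-gene clusters to Taf1d, and the call was made in this 1 alone. Whether each of the 9 lies at the Taf1d gene was not tested. The other 8 were not called, and 4 of them carry the same 12 values, so that 6 distinct sets of values remain. The cluster that lists 11 Taf1d accessions averaged 554.1 ± 40.4 in MSN mice and 569.8 ± 29.5 in ICR mice (SD, n = 6 each), with a log2 fold change of -0.04 (95% confidence interval -0.15 to 0.07, limma adjusted P-value = 0.787). The 4 clusters with shared values averaged 446.5 in MSN mice and 478.0 in ICR mice, with a log2 fold change of -0.10 (limma adjusted P-value = 0.438). The remaining 3 clusters had log2 fold changes of 0.06, -0.02 and -0.08, and in all 8 the values of the strains overlapped. The called cluster lists a single accession, BC056964, which is also listed by 7 of the other clusters. RefSeq places 6 small nucleolar RNA genes inside the Taf1d gene, and which part of the locus the called cluster measures was not tested. The study could not preclude that sequence changes at probe sites affected its array values for some genes. Whether they did so for this cluster was not tested.

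**Figure D2:**
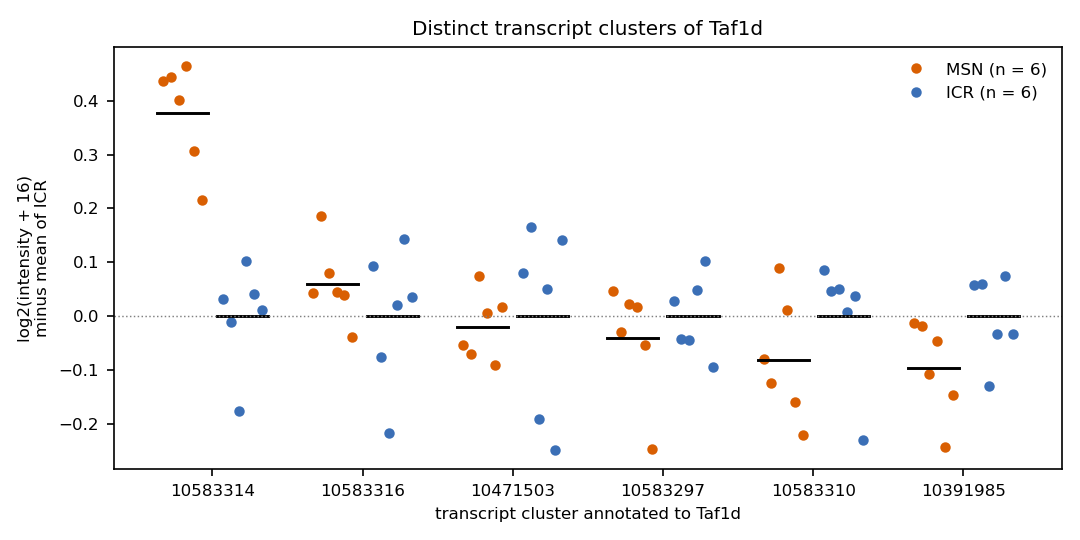
Values of each mouse for the 6 distinct sets of Taf1d values (x axis, transcript cluster number), as log2(intensity + 16) minus the mean of ICR, with MSN left of ICR and black lines at the strain means; the rightmost set stands for 4 clusters with identical values. Cluster 10583314, which represents the gene, separates the strains, and the other 5 sets overlap.

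The other SL1 subunits had smaller log2 fold changes than Taf1d, of either sign. Taf1a had a log2 fold change of -0.09 (95% confidence interval -0.18 to 0.01), Taf1b of 0.01 (-0.10 to 0.12) and Taf1c of -0.05 (-0.14 to 0.05), and none was called. The genes that RefSeq places next to Taf1d on chromosome 9 were not called either. Med17, a Mediator subunit, had a log2 fold change of -0.03, 4931406C07Rik of 0.01, Cep295, a centrosomal gene, of -0.10 (limma adjusted P-value = 0.317) and Smco4 of -0.07.

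Taf4b is the paralogue of the TFIID scaffold subunit Taf4 and is best known from ovary and testis. Its intensities were 344.9, 310.7, 348.5, 325.3, 303.6 and 301.6 in MSN mice, against 283.5, 289.1, 252.9, 269.4, 292.8 and 268.6 in ICR mice. The lowest MSN value lay above the highest ICR value. Means of 322.4 ± 20.6 in MSN mice and 276.0 ± 15.1 in ICR mice (SD, n = 6 each) gave a log2 fold change of 0.21 (SE 0.05, 95% confidence interval 0.11 to 0.31). The gene missed the threshold (limma adjusted P-value = 0.0569; exact permutation P-value = 0.00216), and it was called in 5 of 9 other settings on the log2 scale. Taf4 itself averaged 804.6 ± 30.8 in MSN mice and 789.8 ± 34.6 in ICR mice, with a log2 fold change of 0.03 (95% confidence interval -0.06 to 0.11). Of the genes beside Taf4b, Psma8 and Kctd1 had log2 fold changes of 0.02 and 0.01, Ss18 of -0.08, and Aqp4, the astrocyte water channel, of -0.23 (limma adjusted P-value = 0.148), and none was called.

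Intervals were narrow for 12 of the 18 TFIID members. Tbp, which binds the TATA box and bends promoter DNA, had intensities of 1616, 1544, 1538, 1479, 1384 and 1396 in MSN mice, against 1479, 1504, 1646, 1552, 1534 and 1379 in ICR mice, and the strains overlapped over nearly their whole range. Its log2 fold change was -0.02 (95% confidence interval -0.13 to 0.08). Taf1, the largest subunit, which reads acetylated histones, had a log2 fold change of -0.02 (-0.09 to 0.05). Values were 0.02 for Taf2, which contacts the initiator element, -0.04 for Taf3, which binds a histone mark of active promoters, 0.03 for the scaffold subunit Taf5 and 0.03 for Taf6. The intervals of these genes, of Taf4, Taf8, Taf9, Taf9b, Taf13 and Taf15, 12 in all, lay within 0.15 of 0 on the log2 scale. Those of Taf4b, Taf7, Taf7l, Taf10, Taf11 and Taf12 reached beyond it.

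Taf10 is a histone-fold subunit shared by TFIID and SAGA, and its difference did not pass the test. Its intensities were 1013, 939.4, 974.6, 959.8, 1145 and 930.2 in MSN mice, against 898.4, 913.7, 921.1, 945.3, 913.1 and 897.1 in ICR mice. MSN replicate 5 was the highest of all, and 2 MSN values lay below the highest ICR value. The means were 993.6 ± 79.5 in MSN mice and 914.8 ± 17.6 in ICR mice (SD, n = 6 each), with a log2 fold change of 0.11 (limma adjusted P-value = 0.318; exact permutation P-value = 0.00649), and without MSN replicate 5 it was 0.07 (limma adjusted P-value = 0.407). A second Taf10 cluster averaged 411.8 ± 22.8 in MSN mice and 416.6 ± 29.5 in ICR mice, with a log2 fold change of -0.02 (limma adjusted P-value = 0.926), so the clusters of this gene disagree in direction. Taf8, the partner of Taf10, had a log2 fold change of -0.02. Taf11 and Taf13, which pair with each other, had values of 0.04 and 0.03, and a second Taf13 cluster had -0.11 (limma adjusted P-value = 0.498). Taf12, the partner of Taf4, had 0.02, and Taf15, an RNA-binding protein found with a fraction of TFIID, had -0.01.

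Paralogues of TFIID subunits gave no call. Taf9b, a relative of Taf9, ranged over 3019 to 3318 in MSN mice (median 3219) and 2865 to 3273 in ICR mice (median 3105), so that the strains overlapped widely. It averaged 3200 ± 120.2 in MSN mice and 3093 ± 149.3 in ICR mice (SD, n = 6 each), with a log2 fold change of 0.05. Taf9 itself had -0.02, and a cluster shared by Taf9 and Ak6, which the rule leaves out, had -0.00. Taf7l, the germ cell relative of Taf7, had intensities of 75.7, 79.6, 79.5, 83.8, 69.3 and 83.5 in MSN mice, against 99.8, 94.3, 78.4, 91.2, 79.2 and 87.0 in ICR mice. The strains overlapped between 78.4, the lowest ICR value, and 83.8, the highest MSN value. The log2 fold change of Taf7l was -0.14 (95% confidence interval -0.26 to -0.02, limma adjusted P-value = 0.313; exact permutation P-value = 0.0455), and that of Taf7 was -0.08. The SAGA proteins Taf5l and Taf6l had log2 fold changes of 0.03 and -0.00.

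**Figure D3:**
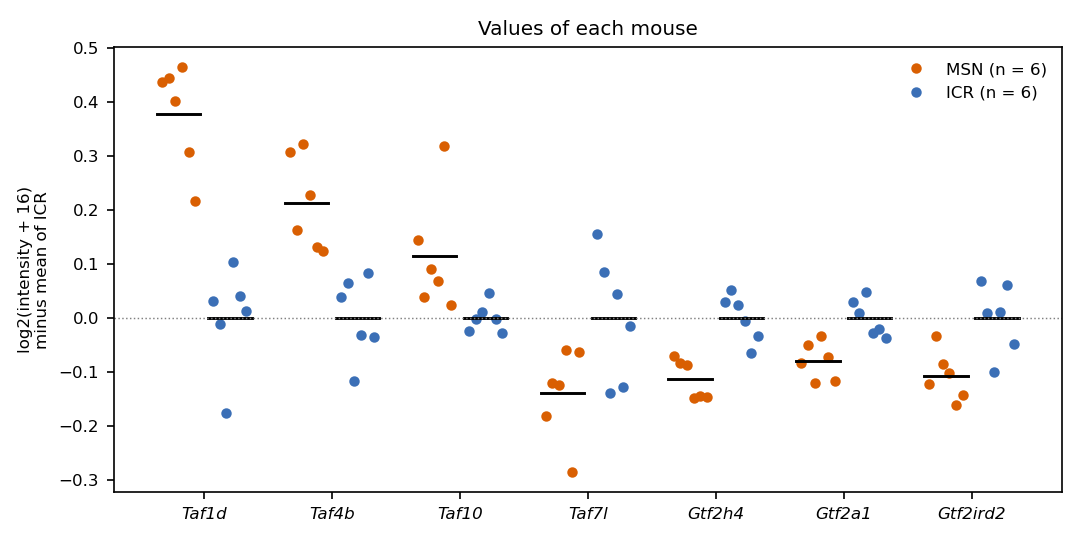
Values of each mouse for the 7 members with an unadjusted P-value under 0.05, as log2(intensity + 16) minus the mean of ICR, with MSN left of ICR and black lines at the strain means (n = 6 each). Taf1d, Taf4b and Gtf2h4 show no overlap between the strains, while Taf10, Taf7l, Gtf2a1 and Gtf2ird2 do.

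TFIIH opens promoter DNA and phosphorylates RNA polymerase II. Gtf2h4 encodes the subunit that anchors its XPB translocase. The intensities were 441.7, 437.5, 436.2, 417.8, 419.0 and 418.5 in MSN mice, against 474.6, 482.0, 472.7, 462.8, 443.3 and 453.8 in ICR mice. All MSN values lay below all ICR values, by a small margin at the nearest pair of mice. The means were 428.4 ± 11.1 in MSN mice and 464.9 ± 14.5 in ICR mice (SD, n = 6 each), with a log2 fold change of -0.11 (SE 0.03, 95% confidence interval -0.18 to -0.04). This did not pass the test across all clusters (limma adjusted P-value = 0.140). The unadjusted exact permutation P-value was 0.00216, which any gene without overlap between the strains takes. The other subunits with Gtf2 names had log2 fold changes of -0.04 (Gtf2h1), 0.01 (Gtf2h3) and -0.07 (Gtf2h5), and Gtf2h2 was not analysed here.

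The genes beside Gtf2h4 on chromosome 17 had log2 fold changes of either sign. Ier3, an early response gene close to it, averaged 215.7 ± 20.1 in MSN mice and 266.8 ± 10.5 in ICR mice (SD, n = 6 each) and was called, with a log2 fold change of -0.29 (limma adjusted P-value = 0.0238). Vars2, a mitochondrial tRNA synthetase gene on the other side, had a log2 fold change of 0.11 with no overlap between the strains (limma adjusted P-value = 0.135), and Ddr1 had 0.07. Whether these values share a source with that of Gtf2h4 was not tested. In all, 7 members lie on chromosome 17 and 5 on chromosome 5.

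TFIIA steadies TBP on DNA. Gtf2a1, its large subunit, ranged over 2051 to 2178 in MSN mice (median 2112) and 2174 to 2307 in ICR mice (median 2222), so the strains overlapped at 1 MSN mouse. The means were 2110 ± 51.1 in MSN mice and 2231 ± 53.2 in ICR mice (SD, n = 6 each), with a log2 fold change of -0.08 (limma adjusted P-value = 0.289; exact permutation P-value = 0.00433). Gtf2a2, the small subunit, had a log2 fold change of -0.06, and Gtf2a1l, the testis form of the large subunit, had 0.02. Gtf2b, the only subunit of TFIIB, which sets the start site, had -0.03 (95% confidence interval -0.13 to 0.08). The TFIIE genes Gtf2e1 and Gtf2e2 had 0.03 and -0.00, and the TFIIF genes Gtf2f1 and Gtf2f2 had -0.00 and -0.02.

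In the TFII-I family, whose 3 genes lie together on chromosome 5, values differed between neighbors. Gtf2ird2 ranged over 262.5 to 288.4 in MSN mice (median 272.2) and 274.6 to 310.6 in ICR mice (median 297.8), with overlap between the strains. It averaged 273.2 ± 9.22 in MSN mice and 295.9 ± 13.9 in ICR mice (SD, n = 6 each). Its log2 fold change was -0.11 (limma adjusted P-value = 0.236; exact permutation P-value = 0.013). Gtf2ird1 had a log2 fold change of -0.07 (95% confidence interval -0.15 to 0.01), and Gtf2i, which encodes TFII-I itself, had 0.03 (-0.04 to 0.10). None of the 3 was called, and the differences between them were not tested.

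Each interval covers the chosen cluster of a gene alone, and the intervals were not adjusted for their number. For Taf13, whose chosen cluster is within 0.15 of 0, the second cluster had an interval of -0.25 to 0.02. Of the 38 members that were not called, 36 had a 95% confidence interval within 0.25 of 0 on the log2 scale, the exceptions being Taf4b and Taf7l, and 25 had one within 0.15. The ratio of geometric means on the same scale ran between 0.908 and 1.16 among them. Spread between animals was of similar size in the strains. The median SD over members was 0.07 on the log2 scale in MSN mice and 0.07 in outbred ICR mice, beside 0.09 in each strain over all tested clusters, and the SD was higher in MSN mice for 19 members and in ICR mice for 20. The strains differed in spread for single genes, with an SD of 0.04 in MSN mice and 0.13 in ICR mice for Gtf2h5, and of 0.11 in MSN mice and 0.03 in ICR mice for Taf10. These differences in spread were not tested.

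Partner proteins of these factors were examined through 8 lists with 105 measured genes, and none was called by limma, while 9 of the 105 had an unadjusted P-value under 0.05, 4 with higher and 5 with lower means in MSN mice, beside 0.777% called and 12.7% under 0.05 unadjusted among all tested clusters. Their median log2 fold change was -0.01. Tcea2, an elongation factor that rescues stalled RNA polymerase II, was the only partner gene without overlap between the strains, beside 1.44% of all tested clusters. It averaged 555.4 ± 20.7 in MSN mice and 622.9 ± 26.7 in ICR mice (SD, n = 6 each), with a log2 fold change of -0.16 (limma adjusted P-value = 0.067). It was called when ICR replicate 3 was left out.

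In each of the other lists the genes with the smallest P-values stayed uncalled. The RNA polymerase II subunits Polr2k and Polr2g had log2 fold changes of -0.20 and 0.10. Ercc3 and Mnat1, TFIIH subunits outside the Gtf2 names, had -0.10 and -0.07. Drap1, a subunit of the TBP repressor NC2, had 0.10 and the TBP paralogue Tbpl2 had -0.07. The RNA polymerase III factors Gtf3c1 and Brf1 had 0.08 and -0.06, and the RNA polymerase I genes Twistnb and Znrd1 had -0.09 and -0.08. Kat2a, the acetyltransferase of SAGA, had 0.08 and its partner Tada2a had -0.12. The Mediator subunits Med21 and Med7 had -0.12 and 0.12, and the elongation factor Ell2 had -0.10.

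**Figure D4:**
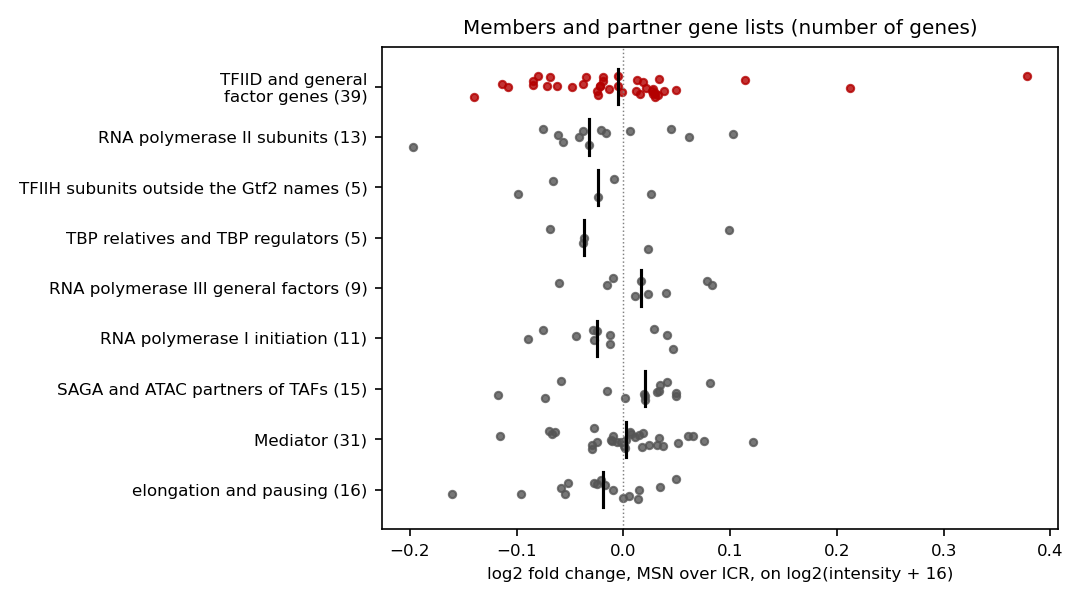
Log2 fold change (MSN over ICR, n = 6 mice each) of each gene on the log2(intensity + 16) scale, with the 39 members in red and the 8 partner lists in grey, and black lines at the medians. List medians lie between -0.04 and 0.02, and points beyond 0.2 on either side are Taf1d and Taf4b only.

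The 12 arrays had median intensities of 373.2 to 389.2 over the tested clusters. Over all clusters, the medians used for scaling to the same median, they ran from 270.2 (MSN replicate 5) to 298 (ICR replicate 2). Of the tested clusters, 71 were called higher and 111 lower in MSN mice (131 and 109 with quantile normalization, 115 and 89 with scaling to the same median). The median deviation of the members from their own means was between -0.05 and 0.04 on the log2 scale in every array. Markers of hippocampal neurons were detected, with 0 of 8 called. An unadjusted limma P-value under 0.05 was found for 2 of them, both higher in MSN mice, beside 12.7% of all tested clusters. Among markers of other cell types, Pdgfra of oligodendrocyte precursors was called higher, with a log2 fold change of 0.26. The precursor markers Cspg4 (0.08) and Gpr17 (0.10) were not called and overlapped between the strains. The summed intensity of the 3 precursor markers, Pdgfra included, was 1924 to 2209 in MSN mice and 1698 to 1919 in ICR mice. The 4 astrocyte markers summed to 8837 to 9597 in MSN mice and 9477 to 10980 in ICR mice, with 0 called. Of these 4, 3 had an unadjusted limma P-value under 0.05 (1 higher and 2 lower in MSN mice), beside 12.7% of all tested clusters. Their log2 fold changes were of either sign (Gfap -0.30, Aqp4 -0.23, Slc1a3 -0.07, Aldh1l1 0.19). The 5 choroid plexus and ependyma markers summed to 8328 to 19780 in MSN mice and 6935 to 19660 in ICR mice. All 4 mature oligodendrocyte markers had log2 fold changes above 0, with 0 called and 2 under an unadjusted limma P-value of 0.05. Values above 0 were also found for 3 of 3 endothelial, 3 of 3 striatal, 3 of 4 microglial and 1 of 4 thalamic markers. None of these was called or under 0.05 unadjusted. No marker was at 0, and the part of these cell types in the values of Taf1d, Taf4b and Gtf2h4 was not tested. In whole tissue, fewer cells of a type and less RNA per cell cannot be told apart.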

How the data were processed

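Hippocampal RNA of 6 MSN and 6 ICR mice, separate animals, was hybridized to 1 array each. The deposited intensity of each transcript cluster was summarized by the authors with PLIER after GC-bin background correction, run in Affymetrix Power Tools 1.12.0. Values are linear, already normalized between arrays. The genome build is not given in the sources used here. All 12 value columns matched a labelled sample. The number of arrays limits precision.

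The platform annotation paired 23410 of the 35556 clusters with a gene. After 16 was added to each intensity, the log2 values entered a linear model with strain alone (limma 3.58.1 under R 4.3.3, default eBayes options, prior degrees of freedom 4), with Benjamini-Hochberg adjustment over the 23410 clusters and a call at an adjusted P-value under 0.05. The fit was run on simulated normal values, independent between clusters, only to check that planted changes were recovered on average. That check set no limit on false calls. A fold change on this scale understates changes of dim clusters, and at most 2.33% of the values of an array were below 16. Single genes were also compared by a two-sided exact permutation test of the 6 against 6 log2 values. The permutation P-values were not adjusted, and any gene without overlap between the strains takes 0.00216 in that test. Means and SDs are of linear intensities. Whether a cluster also binds RNA of a copy elsewhere was not tested.

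Members, partner lists, markers and motifs were chosen with earlier results of these data known. Values per mouse, or their range and median, are given for members that were called, had an unadjusted P-value under 0.05 or did not overlap, and for the brightest and dimmest clusters, and for each partner list the called genes or otherwise the 2 with the smallest P-values. Genes beside Taf1d, Taf4b and Gtf2h4, and Tbp and Taf4 with their values, were chosen after values were seen. Of the lists, 3 partner genes and 2 markers were not analysed here. RefSeq tables of GRCm38.p6 gave neighbors and promoters, and 4 members had no entry in the promoter table. Alternatives were other pseudocounts (1 and 64), untransformed values, quantile and median scaling, trend and robust options, array weights, other sets of clusters, a replicate block and leaving out each array.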

Additional observations from a re-analysis of the deposited data

Results flagged for a closer look

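In 78 groups of 6 values (39 members in 2 strains), the highest or lowest mouse was examined with Dixon's test, which chance flags in about 1 of 20 groups, and 5 groups had a mouse far from the others. Taf1 was 1258 in MSN replicate 6, against 1316 to 1346 in the other MSN mice. Taf1a, of SL1, was 783 in the same mouse, against 840.6 to 874.3. Taf2 was 1397 in ICR replicate 2, against 1205 to 1264 in the other ICR mice. Taf11 was 404.9 in ICR replicate 4, against 304.7 to 333.1, and Taf13, its partner, was 433 in ICR replicate 6, against 401.3 to 411.6. None of these genes was called.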

How the results depend on the processing

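Taf1d was called in all 10 other settings on the log2 scale (adjusted P-value 0.000879 to 0.0325) and on untransformed intensities (0.011). With a pseudocount of 64, quantile normalization, scaling to the same median, trend and robust options or array weights, 2 members were called, Taf1d and Taf4b (Taf4b adjusted P-value 0.0264 to 0.0463), and over all 9 settings that of Taf4b ran up to 0.154; without each array it was 0.0543 to 0.129. The cause was not tested. The other 5 members with an unadjusted P-value under 0.05 kept their direction and stayed uncalled. Of the partner genes, 1 (Tcea2) was called on untransformed intensities, with array weights, with only clusters above the median level (fewer clusters tested) and without ICR replicate 3, and 0 without any other array. Other clusters of 3 members reversed the direction. Their log2 fold changes were -0.0150 for Taf10, -0.111 for Taf13, and -0.0956, -0.0196, -0.0408 and -0.0802 for Taf1d. The median log2 fold change of the members ran up to 0.02 with scaling to the same median, and it has no value on untransformed intensities. Deviations of MSN and ICR mice with equal replicate numbers had correlations of -0.126 to 0.125. Mice with unequal numbers were not compared, so whether the numbers pair the mice was not tested. With the replicate block 1 member was called, Taf1d (adjusted P-value 0.0325), and 42 of all tested clusters, against 182 without the block.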
